A study of Mus musculus with 6 samples.

Results

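The genes described here encode the MHC class II machinery of the mouse, the proteins that load and display peptides taken up from outside the cell. The 10 members were taken by symbol from the 47606 genes of each deposited table: H2-Ob and H2-Oa, H2-DMa, H2-DMb1 and H2-DMb2, H2-Aa, H2-Ab1 and H2-Eb1, Cd74 and Ciita. They were chosen by their FPKM difference between the libraries of replicate numbers 2 and 1, so that difference is given here as a description with no test. The comparison of guides with empty vector was tested.

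The cells were 32D, an established myeloid progenitor line from mouse bone marrow that depends on interleukin 3 (1 ng/mL, per the labels). All 6 libraries came from cells carrying dCas9-KRAB, in which a repressor domain is fused to a Cas9 that binds DNA without cutting. The cells had been transduced by lentivirus with guide sg2 (2 libraries), guide sg5 (2 libraries) or an empty vector, EV (2 libraries), and then selected with puromycin. The series is about a CEBPE enhancer, CEBPE being a regulator of granulocyte maturation, and its design text sets the guides, as a knock-down, against EV. Each group has a library numbered 1 and a library numbered 2, and the labels do not say what the number stands for or whether the cultures were separate. The sg5 library numbered 2 is titled sg5 but carries a source name and genotype of sg2, and it was counted by its title.

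Class II molecules are pairs of an alpha and a beta chain. The classical chains H2-Aa with H2-Ab1 and H2-Eb1 with an E alpha chain bring peptides to the surface of B cells, dendritic cells and macrophages. Cd74, the invariant chain, occupies the peptide groove of newly made classical molecules. H2-DM, made of H2-DMa and a DMb chain, exchanges the remnant of Cd74 for peptide inside endosomes, and H2-O, made of H2-Oa and H2-Ob, restrains H2-DM. Ciita is the co-activator that switches on class II promoters by docking onto factors bound to their X and Y boxes.

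The promoter stretches around these boxes are shown first, because the genes they belong to stood at very different levels. The sequences are from RefSeq (GRCm38.p6), chromosome 17, written 5′ to 3′ on the strand of the gene. They run from 48 bases before the Y box core to 8 bases after it. Capitals mark the Y box core ATTGG and, where it is present, the X box pattern AGNAACNNATG.
H2-Ob (chr17:34238800-34238860, plus strand): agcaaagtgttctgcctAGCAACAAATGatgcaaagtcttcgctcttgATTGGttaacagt
H2-Oa (chr17:34092288-34092348, plus strand): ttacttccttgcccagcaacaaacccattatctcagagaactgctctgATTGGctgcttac
H2-DMb2 (chr17:34145111-34145171, plus strand): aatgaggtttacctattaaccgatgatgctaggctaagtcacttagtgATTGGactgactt
H2-Aa (chr17:34287859-34287919, minus strand): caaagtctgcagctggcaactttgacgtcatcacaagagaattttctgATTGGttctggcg
H2-Eb1 (chr17:34305760-34305820, plus strand): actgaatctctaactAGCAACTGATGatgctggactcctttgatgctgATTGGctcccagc

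Of the 10 members, 7 had a promoter entry, and these 7 genes had 8 windows of 300 bases. Starts here are those of RefSeq. The Y box core began 57 bases before the start of H2-Ob, 43 before H2-Oa, 90 before H2-DMb2, 48 before H2-Aa and 59 before H2-Eb1, each time within the letters TGATTGG. GENCODE M21 has an earlier start for H2-DMb2, so that its stretch lies in an intron of that gene, and the last 9 bases of the H2-Oa stretch are exonic. The H2-DMb1 window held it 61 bases before the start. That stretch is not shown because GENCODE M21 places it in the first exon of the gene. Of the 2 H2-DMa windows, 1 had no Y box core and the other had it 198 bases before the start. On either strand, ATTGG was present in 37.4% of all 32851 promoter windows, so the core alone is common. The X box pattern was present in 0.895% of windows. The X box pattern followed by ATTGG within 40 bases on the same strand was present in 11 windows in all (0.0335%), among them those of H2-Ob, H2-DMb1 and H2-Eb1, with gaps of 20, 23 and 22 bases. These patterns were chosen after the sequences had been seen, and a match is a description of letters only.

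RNA abundance was deposited as FPKM, which scales fragments by the length of the transcript and the size of the library, so that levels can be compared between genes. The implied depth was between 31800000 and 46400000 fragments per library. Of the 10 members, 6 averaged 1 FPKM or more and were tested among 12929 genes in all. These were the 5 H2-O and H2-DM chains and Cd74. H2-Aa, H2-Ab1, H2-Eb1 and Ciita fell under that filter. The replicate numbers separated the libraries more than the guides did. Over the tested genes, the libraries of number 2 and number 1 did not overlap for 61.1%, with number 2 higher for 27.0% and lower for 34.1%. The libraries of guides and EV did not overlap for 5.1%. Of 10 progenitor and mast cell markers of the line, 8 were tested. Prtn3, a protease of primary granules, stood between 234 and 372 FPKM and Gata2, a factor of progenitors and mast cells, between 384 and 585 FPKM. Elane, another granule protease, stood between 1.40 and 2.495 FPKM. Cd34, a progenitor surface protein, was at most 0.329 FPKM, and Kit, the stem cell factor receptor, was listed at 0 in all 6 libraries. Without the sg5 library of number 2, whose labels conflict, the differences between the numbers were 4.11 for H2-Ob, 0.73 for H2-Oa, 1.23 for H2-DMa, 0.41 for H2-DMb1, 0.81 for H2-DMb2 and -1.88 for Cd74 on the log2 scale used below.

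H2-Ob had the widest difference among the members. It measured 118 FPKM with sg2, 126 with sg5 and 125 with EV in number 2, against 6.24 with sg2, 6.54 with sg5 and 5.53 with EV in number 1. The 3 libraries of each number lay close together whatever the vector, and the numbers did not overlap. The mean of 123 ± 4.05 FPKM in number 2 was 20.2-fold the mean of 6.10 ± 0.52 FPKM in number 1 (SD, n = 3 each). On the log2(FPKM + 1) scale, where the added 1 shrinks differences of low genes, the difference was 4.13, and it was 4.04 within sg2, 4.07 within sg5 and 4.27 within EV. Only 4 of 12929 tested genes (0.0309%) were higher in number 2 by at least 4 on that scale, and H2-Ob had the 4th largest difference in either direction.

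H2-Oa, the partner of H2-Ob, differed far less. It measured 43.8 FPKM with sg2, 37.6 with sg5 and 39.8 with EV in number 2, against 25.2, 27.3 and 21.9 FPKM with sg2, sg5 and EV in number 1. Its libraries of number 2 were all above those of number 1, as for 27.0% of all tested genes, with means 1.63-fold apart. The log2 difference of 0.69 ranked 2712 by size among the 12929 tested genes. The ratio of H2-Ob to H2-Oa was therefore turned round between the numbers. H2-Ob stood at 2.70, 3.34 and 3.14 times H2-Oa with sg2, sg5 and EV in number 2. It stood at 0.247, 0.24 and 0.253 times H2-Oa with sg2, sg5 and EV in number 1. The beta chain of H2-O was thus the more abundant RNA in the libraries of number 2, and the alpha chain in those of number 1.

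**Figure D1:**
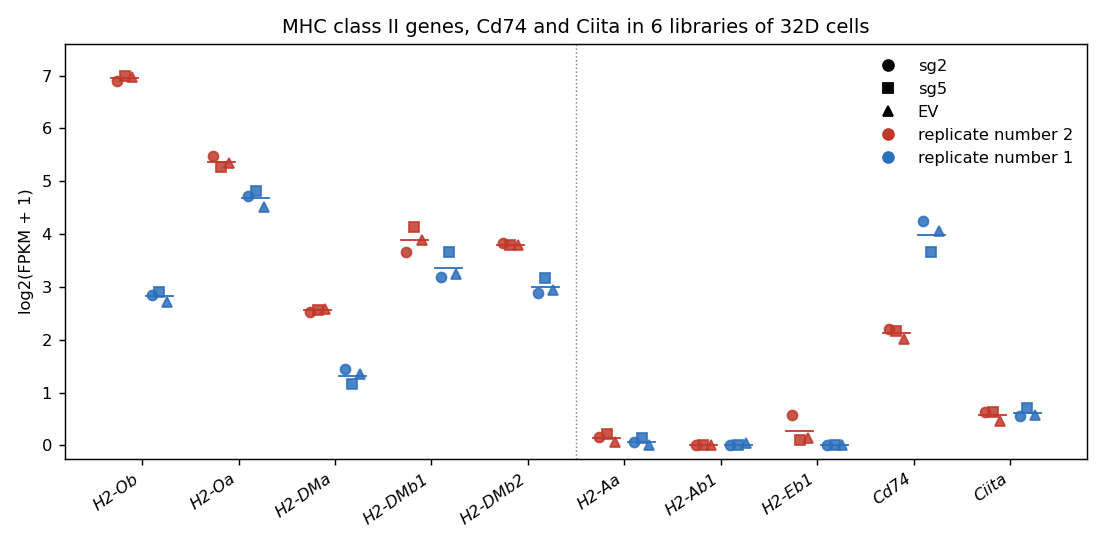
Level of each member as log2(FPKM + 1) in the 6 libraries, with the libraries of number 2 in red and those of number 1 in blue, symbols for sg2, sg5 and EV, and a bar at the mean of each number. H2-Ob averaged 123 FPKM in number 2 and 6.10 FPKM in number 1, Cd74 averaged 3.37 and 15.1 FPKM, and H2-Aa, H2-Ab1 and H2-Eb1 lay near 0 in all 6 libraries.

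The H2-DM chains also stood higher in number 2. H2-DMa, the alpha chain, measured 4.75 FPKM with sg2, 4.92 with sg5 and 4.97 with EV in number 2, against 1.74, 1.24 and 1.56 FPKM with sg2, sg5 and EV in number 1. The libraries of number 2 lay within a narrow range, and the means were 3.23-fold apart (log2 difference 1.23), where 5.22% of all tested genes were higher in number 2 by at least 1. H2-DMb2, a beta chain, measured 13.2 FPKM with sg2, 12.8 with sg5 and 12.9 with EV in number 2, against 6.44, 8.04 and 6.69 FPKM with sg2, sg5 and EV in number 1. Its means were 1.84-fold apart (log2 difference 0.80), without overlap. H2-DMb1, the other beta chain, measured 11.6 FPKM with sg2, 16.6 with sg5 and 13.9 with EV in number 2, against 8.14, 11.6 and 8.49 FPKM with sg2, sg5 and EV in number 1. Here the number 2 library with sg2 and the number 1 library with sg5 nearly met, and the means were 1.49-fold apart (log2 difference 0.53). By size of the difference H2-DMb2 ranked 2016 and H2-DMb1 4042 among the 12929 tested genes. Of all tested genes 27.0% were higher in number 2 without overlap.

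H2-DMb1 and H2-DMb2 are neighbouring copies of each other. Their longest protein-coding transcripts in GENCODE M21 were identical at 93.7% of 1220 aligned bases. Of the 31-base words in H2-DMb1 transcripts 31.4% also occurred in H2-DMb2 transcripts, and 29.7% of those of H2-DMb2 occurred in H2-DMb1. The split of reads between these copies is therefore uncertain. Their summed level was 24.8, 29.4 and 26.8 FPKM with sg2, sg5 and EV in number 2 and 14.6, 19.6 and 15.2 FPKM with sg2, sg5 and EV in number 1. The numbers did not overlap in the sum either. No 31-base word of H2-Ob, H2-Oa or H2-DMa occurred in transcripts of another gene. For H2-Aa, H2-Ab1, H2-Eb1, Cd74 and Ciita the share was between 0.267% and 1.41%. Words were compared in the sense direction of each transcript only, so overlap with antisense genes is not covered.

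The summed DMb level exceeded H2-DMa in every library. It was 5.21, 5.98 and 5.40 times H2-DMa with sg2, sg5 and EV in number 2, and 8.39, 15.8 and 9.75 times H2-DMa with sg2, sg5 and EV in number 1. H2-DMa was the lowest of the 5 H2-O and H2-DM chains in all 6 libraries.

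Cd74 moved the other way. It measured 3.59 FPKM with sg2, 3.48 with sg5 and 3.03 with EV in number 2, against 17.9 FPKM with sg2, 11.6 with sg5 and 15.7 with EV in number 1. The numbers did not overlap, and the mean was 4.48-fold higher in number 1 (log2 difference -1.86, number 2 minus number 1). The difference was -2.04 within sg2, -1.49 within sg5 and -2.05 within EV. Of all tested genes 4.21% were lower in number 2 by at least 1 on this scale, 0.456% by at least 2 and 0.0464% by at least 3.

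The classical chains among the members, H2-Aa, H2-Ab1 and H2-Eb1, were under 1 FPKM in every library. H2-Ab1, the A beta chain, was listed at 0 in 5 libraries and measured 0.0301 FPKM in the EV library of number 1, about 1 fragment on its transcript of 1212 nt. For H2-Ab1, 3 fragments would correspond to between 0.0638 and 0.0931 FPKM, depending on the library, which covers counting error only. H2-Aa, the A alpha chain, measured 0.111 FPKM with sg2, 0.16 with sg5 and 0.0458 with EV in number 2, and 0.0526 with sg2, 0.0977 with sg5 and 0 with EV in number 1. H2-Eb1, the E beta chain, measured 0.498 FPKM with sg2, 0.0757 with sg5 and 0.109 with EV in number 2, and was listed at 0 in the 3 libraries of number 1. On its longest transcript the sg2 library of number 2 held about 28.6 fragments of H2-Eb1, against 4.38 with sg5 and 7.40 with EV in the same number. No level of H2-Aa, H2-Ab1 or H2-Eb1 reached 1 FPKM, whereas H2-Ob, in the same region, reached 126. The summed level of the H2-O and H2-DM chains was between 192 and 198 FPKM in number 2 and between 44.1 and 54.7 FPKM in number 1. The summed level of H2-Aa, H2-Ab1 and H2-Eb1 was at most 0.609 FPKM in any library.

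The classical chains are highly variable between mouse strains, 32D was raised from a C3H mouse, and GRCm38 is the genome of C57BL/6J. How far differences between alleles lower the counted level of these chains was not tested. H2-Ea-ps, the E alpha gene, which is a pseudogene in C57BL/6J and functional in C3H, was measured at 31.4, 38.5 and 30.002 FPKM with sg2, sg5 and EV in number 2. In number 1 it measured 9.20, 9.72 and 7.47 FPKM with sg2, sg5 and EV. It thus stood well above its partner chain H2-Eb1 in all 6 libraries, with means 3.79-fold apart between the numbers. H2-Eb2, a further E beta gene, was at most 0.0877 FPKM.

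Ciita was low and did not follow the split. It measured 0.553 FPKM with sg2, 0.548 with sg5 and 0.385 with EV in number 2, against 0.475 with sg2, 0.629 with sg5 and 0.495 with EV in number 1. The numbers overlapped, with means of 0.495 ± 0.0956 FPKM in number 2 and 0.533 ± 0.0835 FPKM in number 1 (SD, n = 3 each). The co-activator RNA was therefore detected at a similar low level in libraries where H2-Ob stood at 126 FPKM and in libraries where it stood at 5.53 FPKM.

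In number 2 the order of levels was H2-Ob, H2-Oa, H2-DMb1, H2-DMb2, H2-DMa, Cd74, Ciita, H2-Eb1, H2-Aa and H2-Ab1. Of the neighbours in that order, H2-DMb1 and H2-DMb2 overlapped across the 3 libraries, as did Ciita and H2-Eb1, and H2-Eb1 and H2-Aa. In number 1 the order was H2-Oa, Cd74, H2-DMb1, H2-DMb2, H2-Ob, H2-DMa, Ciita, H2-Aa, H2-Ab1 and H2-Eb1. There H2-DMb2 and H2-Ob overlapped, as did H2-Aa, H2-Ab1 and H2-Eb1. H2-Ob was thus the highest member in each library of number 2 and the 5th by mean in number 1, and Cd74 was the 6th in number 2 and the 2nd in number 1.

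All tested members except Cd74 lie in the class II region of chromosome 17 (GENCODE M21, GRCm38). H2-Oa spans 34092340 to 34095234, H2-DMa 34119541 to 34139101, H2-DMb2 34143307 to 34151555, H2-DMb1 34153072 to 34160230 and H2-Ob 34238903 to 34254414, each on the plus strand. H2-Ab1 (34257689 to 34269419, plus), H2-Aa (34282744 to 34287823, minus) and H2-Eb1 (34305867 to 34316674, plus) follow H2-Ob in that order. Cd74 lies on chromosome 18 and Ciita on chromosome 16. Between H2-Oa and H2-Eb1, over 224 kb, 21 genes are annotated, 18 of them are in the files and 12 were tested. Each of the 12 was higher in number 2 without overlap, against 27.0% of all tested genes. The share is given for the record, since the members entered through this same contrast.

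The 7 tested genes of the region that are not members had means between 1.28-fold and 2.58-fold higher in number 2. Psmb9 and Psmb8, subunits of the immunoproteasome, measured 423, 398 and 414 FPKM and 556, 454 and 541 FPKM with sg2, sg5 and EV in number 2. In number 1 they measured 180, 189 and 177 FPKM and 330, 295 and 321 FPKM. Tap1 and Tap2, which carry peptides into the endoplasmic reticulum for class I, differed 2.02-fold and 1.47-fold. Brd2, a chromatin reader whose gene overlaps H2-DMa on the other strand, differed 1.28-fold. Gm20496, antisense to Psmb8 and Tap2, differed 2.52-fold, and Gm15821, antisense to Tap2, 2.58-fold. The counting is not stated to use strand, so reads where these genes overlap, as where H2-DMa overlaps Brd2 and Psmb9 overlaps Tap1, cannot be told apart with certainty. H2-Oa likewise lies within the span of the antisense gene BC051537, which was listed at 0.191 FPKM at most. The gene next to H2-Ob on its far side, H2-Ab1, was at or near 0 in both numbers.

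**Figure D2:**
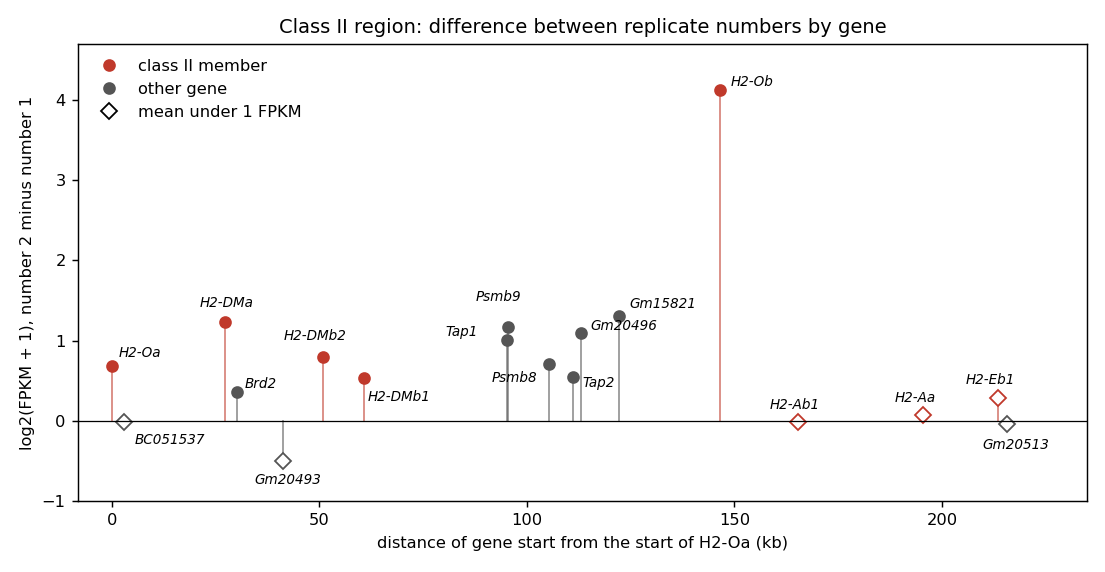
Difference in log2(FPKM + 1), number 2 minus number 1, for the genes between H2-Oa and H2-Eb1 that are in the files, against the distance of each gene's start from that of H2-Oa in kb. Filled circles are tested genes, with members in red, and open diamonds are genes with a mean under 1 FPKM. H2-Ob stands at 4.13, the other tested genes lie between 0.36 and 1.31, and H2-Ab1, H2-Aa and H2-Eb1 lie at -0.01, 0.07 and 0.28.

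The guides were then set against EV, the comparison the study was designed for. No member was called. Over all genes limma with Benjamini-Hochberg adjustment called 0 of 12929 (0.0%), with 169 genes (1.31%) at an unadjusted p under 0.05, none of them a member. H2-Ob averaged 64.2 FPKM over the 4 guide libraries and 65.2 FPKM over the 2 EV libraries, each group being made of libraries near 6 and near 120 FPKM. Its log2 difference was 0.07 (SE 1.77), with a 95% interval from -4.24 to 4.38 and a limma adjusted p of 1.00. Within number 2 the guides differed from EV by -0.03 and within number 1 by 0.18. With the replicate number as a block, the interval was -0.12 to 0.27, still without a call (limma adjusted p = 0.928).

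The other tested members gave differences of similar size. The log2 difference, guides minus EV, was 0.14 (SE 0.32) for H2-Oa, -0.04 (SE 0.55) for H2-DMa, 0.09 (SE 0.30) for H2-DMb1, 0.05 (SE 0.36) for H2-DMb2 and 0.03 (SE 0.82) for Cd74. Each had a limma adjusted p of 1.00. With the replicate block the 95% intervals were -0.10 to 0.38 for H2-Oa, -0.39 to 0.31 for H2-DMa, -0.38 to 0.56 for H2-DMb1, -0.21 to 0.30 for H2-DMb2 and -0.42 to 0.48 for Cd74. Without the sg5 library of number 2, the blocked differences were 0.07 for H2-Ob, 0.20 for H2-Oa, -0.05 for H2-DMa, -0.00 for H2-DMb1, 0.06 for H2-DMb2 and 0.02 for Cd74. Within number 2 the guides differed from EV by between -0.03 (H2-DMa) and 0.17 (Cd74), and within number 1 by between -0.11 (Cd74) and 0.25 (H2-Oa). The blocked fit called 5 genes in all (0.0387%), and none was a member.

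For all 10 members the exact two-sided permutation test of guides against EV gave p between 0.133 and 1, where 0.0667 is the smallest that its 15 splits allow. These splits ignored the replicate number. Where the numbers lay far apart, as for H2-Ob and Cd74, p was bound to be large and says little about the guides. The smallest p belonged to H2-Aa. That gene was higher in all 4 guide libraries (0.0526 to 0.16 FPKM) than in both EV libraries (0 and 0.0458 FPKM). It was also the one member with no overlap of guide and EV libraries, beside 5.1% of the tested genes. On its longest transcript these levels correspond to about 6.28 to 19.0 fragments with guides and 0 and 6.42 with EV. In the fit without a filter on low values H2-Aa had a log2 difference of 0.11 (SE 0.05) and a limma adjusted p of 1.00. Ciita, also under the filter, measured 0.475 to 0.629 FPKM with guides and 0.385 and 0.495 FPKM with EV, and had a log2 difference of 0.11 (SE 0.08) and a limma adjusted p of 1.00 in that fit.

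**Figure D3:**
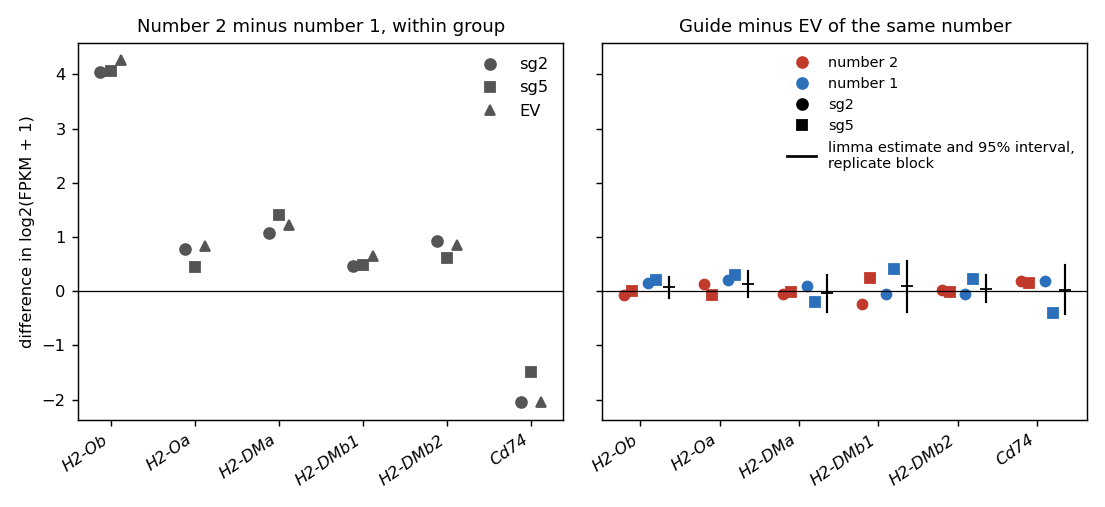
Differences in log2(FPKM + 1) for the 6 tested members on a common scale: number 2 minus number 1 within sg2, sg5 and EV (left), and each guide library minus the EV library of the same number (right), with the limma estimate and 95% interval of the blocked fit in black. The left panel reaches 4.27 for H2-Ob and -2.05 for Cd74, and in the right panel each point lies between -0.41 and 0.41.

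With each guide taken alone, no member was called either. For sg2 against EV limma called 1 of 12929 genes (0.00773%). For sg5 against EV and for sg5 against sg2 it called 0 (0.0%), with 176 and 111 genes at an unadjusted p under 0.05. With the replicate block limma called 3 genes for sg2 against EV (0.0232%), 2 for sg5 against EV (0.0155%) and 0 for sg5 against sg2 (0.0%, with 684 at an unadjusted p under 0.05), again with no member. The comparisons with EV share the EV libraries. H2-Ob differed from EV by 0.04 (log2) with sg2 and by 0.11 with sg5, H2-Oa 0.17 and 0.11, H2-DMa 0.02 and -0.10, H2-DMb2 -0.01 and 0.11, and Cd74 0.18 and -0.13.

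H2-DMb1 was the member on which the guides lay furthest apart. The sg5 libraries, at 16.6 and 11.6 FPKM in numbers 2 and 1, stood above both the sg2 libraries, at 11.6 and 8.14 FPKM, and the EV libraries, at 13.9 and 8.49 FPKM, of the same number. The log2 difference between sg5 and sg2 was 0.47 (SE 0.33), with a limma adjusted p of 1.00. With the replicate block its 95% interval was 0.22 to 0.72 at an unadjusted p of 0.00522, and the limma adjusted p over all genes was 0.854. Without the sg5 library of number 2 the blocked difference was 0.51 (limma adjusted p = 0.796). The neighbouring copy H2-DMb2 had a difference of 0.12 (SE 0.46) between the guides. The ratio of H2-DMb1 to H2-DMb2 was 0.882 and 1.26 with sg2, 1.30 and 1.44 with sg5, and 1.08 and 1.27 with EV, in numbers 2 and 1.

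The other genes of the pathway did not split as H2-Ob did. Of the 7 factors that bind class II promoters, all were tested, 0 were called between guides and EV by limma, and the median log2 difference was 0.08. Between the numbers 2 were higher and 5 lower in number 2, set beside 27.0% and 34.1% of all tested genes, with a median of -0.21. Rfx5, a subunit of the X box complex RFX, measured 42.0 ± 4.37 FPKM in number 2 and 27.0 ± 1.39 FPKM in number 1 (SD, n = 3 each). Nfyc, a subunit of the Y box factor NF-Y, measured 16.0 ± 1.03 FPKM in number 2 and 35.2 ± 2.20 FPKM in number 1 (SD, n = 3 each).

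Of 8 enzymes that prepare class II cargo, 5 were tested and 0 called between guides and EV, with a median log2 difference of -0.00. Between the numbers 3 were higher and 1 lower in number 2, beside 27.0% and 34.1% of all tested genes. Ctsd, a lysosomal protease, measured 360 ± 9.70 FPKM in number 2 and 196 ± 11.4 FPKM in number 1 (SD, n = 3 each). Ctsc, a protease that activates granule enzymes, measured 35.6 ± 3.69 FPKM in number 2 and 60.9 ± 11.8 FPKM in number 1 (SD, n = 3 each). Ctss, the protease that trims Cd74 in antigen-presenting cells, stayed under 1 FPKM in all 6 libraries.

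Of the 5 genes of turnover and co-stimulation in the files, 2 were tested and 0 called between guides and EV. Cd80, a co-stimulatory ligand for T cells, measured 13.1 ± 1.95 FPKM in number 2 and 3.61 ± 0.40 FPKM in number 1 (SD, n = 3 each). March8, a ubiquitin ligase that removes surface proteins, measured 17.8 ± 0.67 FPKM in number 2 and 22.9 ± 1.52 FPKM in number 1 (SD, n = 3 each). Cd86 and Cd40 stayed under 1 FPKM.

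Class I presentation was fully represented, with 13 of 13 genes tested and 0 called between guides and EV (median log2 difference 0.03). Erap1, which trims peptides, and H2-D1, a class I heavy chain, had the smallest unadjusted p, with guide differences of -0.15 and 0.11. Between the numbers 8 were higher and 4 lower in number 2, beside 27.0% and 34.1% of all tested genes, with a median of 0.31. Psmb10, the immunoproteasome subunit encoded outside the class II region, measured 7.04 ± 1.53 FPKM in number 2 and 25.1 ± 5.01 FPKM in number 1 (SD, n = 3 each). It thus stood lower in number 2, where its partner subunits Psmb8 and Psmb9 stood higher.

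Of 13 genes that lead from interferon gamma to Ciita, 9 were tested, 0 were called between guides and EV, and the median log2 difference was -0.06. Spi1 and Ifngr1, a myeloid factor and a receptor chain, had the smallest unadjusted p, with guide differences of -0.20 and -0.24. Between the numbers 3 were higher and 3 lower in number 2, beside 27.0% and 34.1% of all tested genes, with a median of 0.15. Irf1, a factor that acts on the interferon promoter of Ciita, measured 45.5 ± 3.01 FPKM in number 2 and 34.1 ± 0.46 FPKM in number 1 (SD, n = 3 each). Ifngr2, a receptor chain, measured 27.3 ± 1.16 FPKM in number 2 and 43.1 ± 2.95 FPKM in number 1 (SD, n = 3 each). Irf4, a factor of lymphocytes and dendritic cells, was listed at 0 in all 6 libraries.

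**Figure D4:**
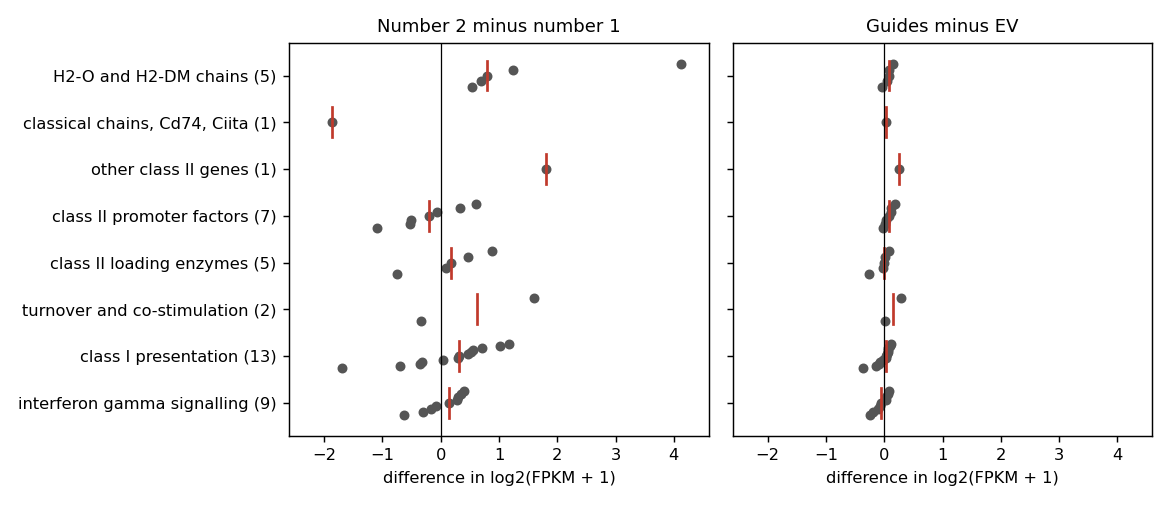
Differences in log2(FPKM + 1) of the tested genes of each list, number 2 minus number 1 (left) and guides minus EV (right), with the number of tested genes in brackets and the median as a red bar. H2-Ob at 4.13 stands apart on the left, and on the right the medians of the plotted lists, which leave out the cell type markers, lie between -0.06 and 0.26.

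Markers of cells that normally carry class II were measured beside these values. Of 9 B cell markers, 5 stayed under 1 FPKM in all libraries, and Pax5, a transcription factor that defines the lineage, reached at most 0.00335 FPKM. Cd22 and Cr2 averaged under 1 FPKM and were not tested. Cd22 reached 1.78 FPKM with EV in number 2, and Cr2 reached 1.09 FPKM with sg5 in number 2. The 2 tested markers were chains of the B cell receptor complex. Cd79b measured between 4.32 and 6.27 FPKM in number 2 and between 6.38 and 8.06 FPKM in number 1, and Cd79a between 1.15 and 1.59 FPKM in number 2 and between 1.51 and 1.99 FPKM in number 1. The B cell list summed to between 7.65 and 10.2 FPKM in number 2 and between 9.43 and 11.2 FPKM in number 1. Of 9 dendritic cell markers, 7 stayed under 1 FPKM, among them Flt3, a growth factor receptor, at most 0.0582 FPKM. The 1 tested marker, the chemokine receptor Ccr7, measured between 1.18 and 1.34 FPKM in number 2 and between 1.12 and 1.24 FPKM in number 1. That list summed to between 3.10 and 3.57 FPKM in number 2 and between 1.89 and 2.41 FPKM in number 1. Itgax, an integrin of dendritic cells and other myeloid cells, measured between 0.95 and 1.52 FPKM in number 2 and between 0.12 and 0.415 FPKM in number 1.

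Of 9 monocyte and macrophage markers, 6 stayed under 1 FPKM, and the list summed to between 39.3 and 51.7 FPKM in number 2 and between 36.3 and 43.2 FPKM in number 1. Most of that sum was Adgre1, a macrophage surface receptor, at 34.6 to 47.6 FPKM in number 2 and 27.6 to 33.9 FPKM in number 1, without overlap. Fcgr1, an antibody receptor, measured 1.07 ± 0.30 FPKM in number 2 and 7.38 ± 0.80 FPKM in number 1 (SD, n = 3 each), the direction of Cd74. Csf1r, the receptor for macrophage colony-stimulating factor, measured 2.72 ± 0.51 FPKM in number 2 and 1.10 ± 0.42 FPKM in number 1 (SD, n = 3 each), the direction of H2-Ob. Of the 8 tested markers of the line itself, 1 was higher in number 2, 1 was lower and 6 overlapped. Among all tested genes 27.0% were higher and 34.1% lower in number 2 without overlap. Cpa3, a mast cell protease, measured 259 ± 49.1 FPKM in number 2 and 127 ± 57.1 FPKM in number 1 (SD, n = 3 each). Mpo, the myeloperoxidase of primary granules, measured 12.3, 14.8 and 13.0 FPKM with sg2, sg5 and EV in number 2 and 41.5, 123 and 151 FPKM with sg2, sg5 and EV in number 1. The part of these markers in the class II differences was not tested. Fewer cells carrying an RNA and less of it per cell cannot be told apart in bulk libraries.

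The genes whose pattern was most like the mean log2(FPKM + 1) of the H2-O and H2-DM chains over the 6 libraries were Caps2, Tmem165, Fam160b1, Idua and Saraf, with Pearson r between 0.999 and 1.00. Those most like the mean of the classical chains, Cd74 and Ciita were Epc1, Rrp7a, Mocs3, Tmem51 and 1110001J03Rik, with r between 0.994 and 0.998. Of the members in that mean, Cd74 differed by -1.86 (log2) between the numbers, and the others by between -0.04 (Ciita) and 0.28 (H2-Eb1). This second profile is thus mainly that of Cd74. The r values are descriptions over 6 libraries that form 2 clusters by number. Among 6414 candidate genes 1053 had an r above 0.95 with the first profile and 456 with the second, so a high r is common here.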

How the data were processed

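The authors deposited 1 table of FPKM per library, 47606 genes each. Kallisto 0.43.0, DESeq2, GRCm38 and mm10 appear, without roles, in the submitters' processing notes. The sources used here give neither the annotation nor the step to FPKM. The deposited position and strand columns were not used. Positions come from GENCODE M21 (GRCm38), which matched 47187 IDs, and promoters from RefSeq.

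Genes averaging 1 FPKM or more were tested as log2(FPKM + 1) with limma 3.58.1 in R 4.3.3 (intensity trend, Benjamini-Hochberg adjustment, threshold 0.05), guides against EV in 1 fit and the 3 groups in another. Tables, sequences and figures used Python 3.11.15, pandas 2.3.3, scipy 1.17.1, Biopython 1.88 and matplotlib 3.10.9.

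Depth was implied from low values of 752 genes with 1 transcript of over 4000 nt, at an assumed fragment length of 200 nt. For each library the depth kept was chosen largely by how near 68 to 114 such values came to whole fragments. At that depth 93.1% to 97.3% of them were whole within 0.15 fragments, a share that the choice itself raised.

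Across genes, the number 2 minus number 1 differences of any 2 groups had correlations of 0.583 to 0.611, so the numbers were taken to pair the libraries. This reading comes from the data, since no label calls the number a batch. No label says that the cultures were separate, so p-values measure only how these libraries spread, which may be technical.

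The members and lists were chosen with earlier results of these data known. Named genes were the members, the tested genes of the region, and in each list up to 2 of smallest p and 2 of widest difference between numbers. In the promoter factor and marker lists some of these stand only in the counts. Pax5, Cd22, Cr2, Flt3, Itgax, Kit, Cd34, Elane, Prtn3, Gata2, Ctss, Cd86, Cd40, Irf4 and H2-Eb2 were named outside that rule.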

Additional observations from a re-analysis of the deposited data

Results flagged for a closer look

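H2-DMb1 drew attention because the guides moved to opposite sides of the EV library of the same number. With sg2 the difference in log2(FPKM + 1) was -0.242 in number 2 and -0.0543 in number 1. With sg5 it was 0.24 in number 2 and 0.41 in number 1. The difference between the guides was tested with limma and was not called over all genes. Reads of the similar copy H2-DMb2 cannot be fully told apart from its own. The H2-DMb2 differences were 0.02 and -0.05 with sg2 and -0.01 and 0.23 with sg5, in numbers 2 and 1.

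H2-Eb1 drew attention because 1 of the 4 guide libraries lay far from the others. The sg2 library of number 2 measured 0.498 FPKM, against 0.0757, 0 and 0 FPKM in the other guide libraries, and the gap was 0.848 of the whole range. The level corresponds to about 28.6 fragments. Chance flags about 1 in 20 groups of like samples, and these libraries are of 2 numbers.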

How the results depend on the processing

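Between the replicate numbers, all 6 tested members kept their direction and their lack of overlap under median-of-ratios scaling and restriction to protein-coding genes. Pseudocounts of 0.1 and 0.5 and the loss of any 1 library could change only the size of the difference, because the numbers did not overlap beforehand. Over these settings and the differences within sg2, sg5 and EV, H2-Ob ranged from 4.04 to 4.31 and Cd74 from -2.11 to -1.49. Restriction to protein-coding genes moved the median of all genes between the numbers to 0.10, against -0.04 as deposited, and the share of non-overlapping genes that were higher in number 2 to 61.4%, against 44.2%.

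Counts of called genes between guides and EV moved with the setting. Over the comparisons of guides and EV and all these settings 0 members were called by limma, with a lowest adjusted p of 0.571 (Cd74, sg5 against EV with the replicate block and without sg5 replicate 2). Of the 10 members, 6 entered the fits at a mean of 1 FPKM, 8 at 0.1 FPKM and 10 without a filter. With the replicate block 5 genes were called for guides against EV, 3 for sg2 and 2 for sg5. Without a filter the counts were 6 for guides, 0 for sg2, 18 for sg5 and 23 between guides, and with a filter at a mean of 0.1 FPKM they were 7, 0, 23 and 20. For protein-coding genes they were 4 for guides and 0 for sg2. Without a filter and with the block, an alternative chosen after seeing the data, they were 5 for guides and 0 for sg2. Leaving out 1 library gave 0 to 2 genes for guides, 0 to 1 for sg2, and 0 for sg5 and between guides.

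In the fits without the replicate block, leaving out 1 library turned the sign of the guide difference of every tested member. Such a fit holds the numbers in unequal shares in guides and EV, so the difference between the numbers enters the guide difference. The range was -2.06 to 2.21 for H2-Ob, -0.28 to 0.56 for H2-Oa, -0.65 to 0.57 for H2-DMa, -0.24 to 0.41 for H2-DMb1, -0.38 to 0.48 for H2-DMb2 and -0.998 to 1.05 for Cd74. Over the fits with and without the replicate block, the lowest limma adjusted p was 0.767 (H2-Ob, with the block, without sg2 replicate 2). With the replicate block and 1 library left out, H2-Ob ranged from -0.0348 to 0.178, H2-Oa from 0.0296 to 0.253, H2-DMa from -0.101 to 0.0230, H2-DMb1 from -0.0233 to 0.205 (-7.29e-05 without EV replicate 1, -0.00285 without sg5 replicate 2), H2-DMb2 from -0.0177 to 0.103 and Cd74 from -0.115 to 0.174 (-0.0784 without sg2 replicate 1, -0.000457 without sg2 replicate 2). Levels under about 0.1 FPKM rest on a few fragments.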
